A study of Homo sapiens with 12 samples.

Results

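The 74 genes described here lost at least 50% of their transcript level in LNCaP cells at both time points after BRG1 depletion. They are protein-coding or lncRNA genes, SMARCA4 itself left out, with a mean of 2 TPM (reads scaled to transcript length and to a common library total) or more in control cells at 72 h and at 144 h, a mean in the 4 BRG1 depleted libraries of at most 0.5 times the control mean of the same time point, and every BRG1 depleted library below both control libraries of that time point. Of 63568 genes in the table, 32305 were protein-coding or lncRNA genes other than SMARCA4 and 11389 of these reached the control level at both time points. Among these, 102 genes were at or below the ratio limit at 72 h, 332 at 144 h and 86 at both. A further 12 genes at or below the limit at both time points were left out because a BRG1 depleted library was not below both control libraries, which leaves 74 genes, 65 protein-coding and 9 lncRNA.

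RNA was taken from LNCaP cells, an androgen-sensitive line from a lymph node metastasis of prostate cancer, grown in T-medium. Control cells received a pool of non-targeting siRNA (si-NT) and BRG1 depleted cells 1 of 2 siRNAs to SMARCA4, the gene for BRG1, and both were collected after 72 h or 144 h. Cells collected at 144 h had been split and transfected again at 72 h, in si-NT and BRG1 depleted cells alike, so time, passage and a further transfection cannot be told apart. There were 12 libraries: 2 of si-NT at each time point, and at each time point 4 of BRG1 depleted cells, made of 2 for each siRNA. The siRNAs are called siRNA 2 and siRNA 3 here, as in the deposited table, and cannot be tied to the numbers 1 and 2 of the labels, which disagree with each other for 1 library at 72 h. LNCaP is 1 cell line, and no label says that the replicates were separate cultures, so the p-values measure the spread between these libraries, which may be technical.

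BRG1 is an ATPase of SWI/SNF, a complex that slides and evicts nucleosomes and so opens promoters and enhancers to transcription factors. In luminal prostate cells, enhancers are occupied by FOXA1, a pioneer factor of the forkhead family, and many of the genes next to them are secreted proteases, membrane proteins and steroid-metabolising enzymes. Loss of a remodeller is known to lower some genes and raise others.

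SMARCA4 averaged 85.2 TPM in si-NT and 19.3 TPM in BRG1 depleted libraries at 72 h, and 100.5 and 15.2 TPM at 144 h. The luminal, basal and blood markers matched the labelled cell type. All 10 of 10 luminal prostate markers were at 1 TPM or more in every library, whereas 5 of 5 basal and 4 of 4 blood markers stayed under 1 TPM in every library. Of 6 neuroendocrine markers 4, and of 6 stromal markers 3, were under 1 TPM throughout. The stromal markers VIM, at 53.7 to 96.4 TPM, and COL1A1, at 3.1 to 9.11 TPM, were above 1 TPM in every library. The remaining stromal marker, ACTA2, ranged from 0.13 to 1.21 TPM. The summed luminal markers ranged from 2156 to 2878 TPM in si-NT and from 1945 to 2820 TPM in BRG1 depleted libraries over both time points. The summed neuroendocrine markers ranged from 10.7 to 21.1 TPM in si-NT and 7.55 to 23.9 TPM in BRG1 depleted libraries at 72 h, but from 5.78 to 8.12 TPM and 8.63 to 17.4 TPM at 144 h. Most of that sum was ENO2, at 5.36 to 22.6 TPM. SYP ranged from 0.39 to 1.36 TPM, and its lowest value at 144 h was 0.39 TPM in si-NT and 1.18 TPM in BRG1 depleted libraries. The 4 markers under 1 TPM throughout, CHGA, CHGB, INSM1 and NCAM1, stayed at or under 0.19 TPM. The part of this sum in the results was not tested. ERCC spike-in RNA took 0.805% to 1.97% of TPM, and TPM keeps no read depth, so depth and counting error are unknown and precision rests on the replicates.

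Together the 74 genes made up 0.176% to 0.187% of gene TPM in the 4 si-NT libraries. In BRG1 depleted cells they made up 0.0491% to 0.0834% at 72 h and 0.0424% to 0.0470% at 144 h. The median member kept 37.1% of its si-NT mean at 72 h, with a range of 8.72% to 50%, and 20.5% at 144 h, with a range of 2.68% to 49.2%. The genes were chosen by these ratios, so they are given as a description with no test. In bulk RNA, fewer cells of a kind that expresses a gene and less RNA per cell cannot be told apart. Most members were modestly expressed in control cells: the si-NT mean over both time points was under 10 TPM for 43 genes, 10 to 50 TPM for 22 and 50 TPM or more for 9. In BRG1 depleted cells 13 of them averaged under 1 TPM at 72 h and 26 at 144 h.

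**Figure D1:**
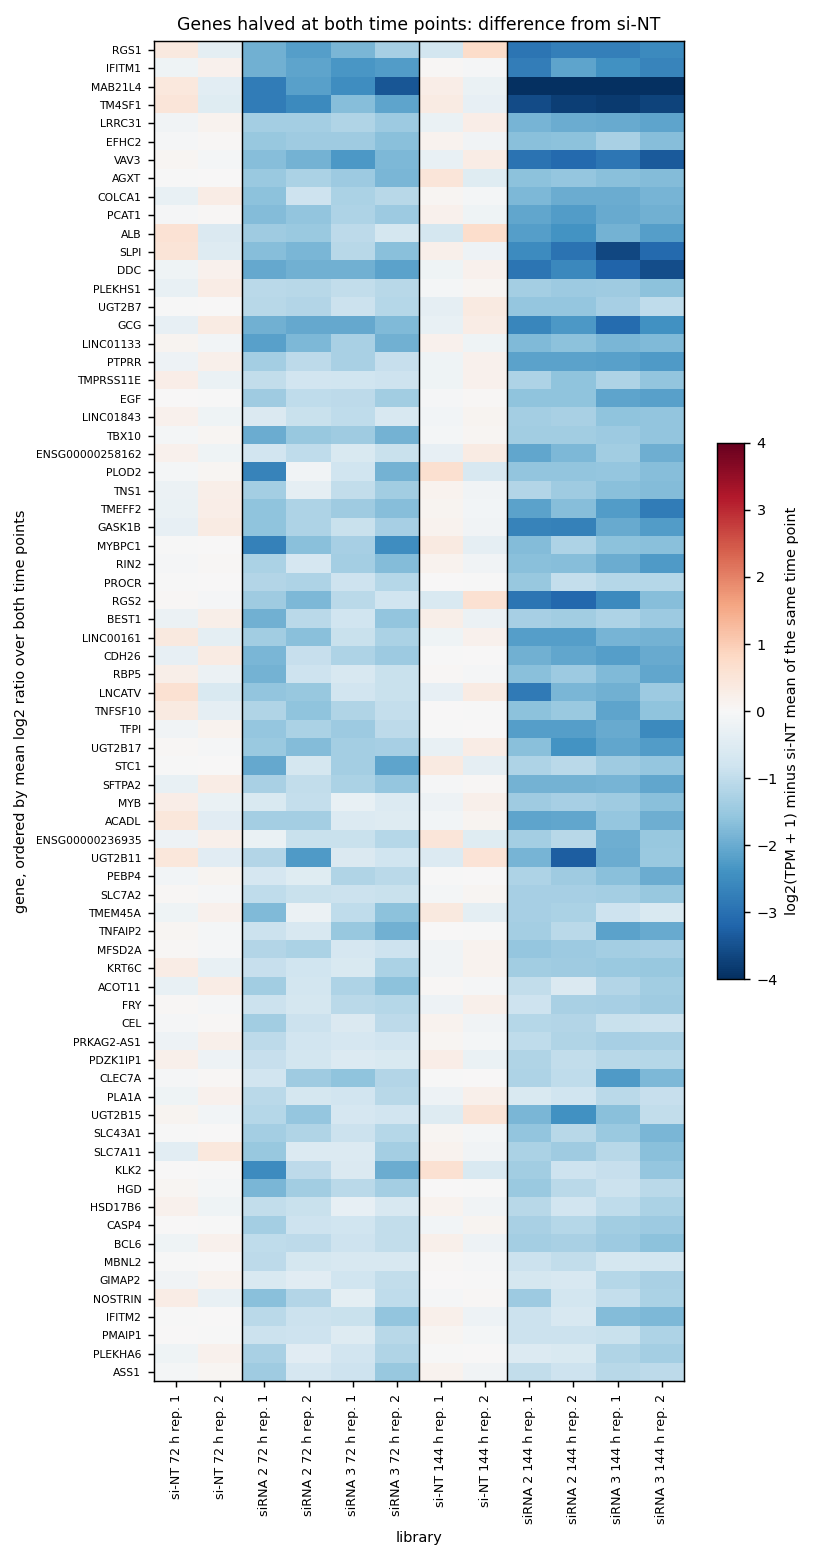
Level of 73 of the 74 genes (rows, ordered by the mean log2 ratio over both time points) in the 12 libraries (columns), as log2(TPM + 1) minus the si-NT mean of the same time point; values below -4 are drawn as -4. The BRG1 depleted columns lie below the si-NT mean in all rows drawn, which the choice of genes fixes, and the 144 h columns are darker for most rows (67 of 74 kept a smaller percent of si-NT at 144 h).

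Every depleted library of a member lay below both si-NT libraries of its own time point by the choice of genes. Across time points this was not required, and in 66 of the 74 all 8 BRG1 depleted libraries lay below all 4 si-NT libraries, against 4.01% of the 11389 genes that reached the control level. The 8 members that overlapped across time points were SLC7A11, ASS1, BEST1, TMEM45A, PLOD2, ACADL, STC1 and KLK2, and each had a si-NT library at 1 time point at or under a BRG1 depleted library of the other. The percent of si-NT left was smaller at 144 h than at 72 h in 67 members, against 55.9% of those 11389 genes. Both counts rest on values used in the choice, so nothing is read from them. The 7 members that kept as large or a larger percent at 144 h were TBX10, MYBPC1, HGD, KLK2, ACOT11, PLA1A and ASS1. Single BRG1 depleted libraries had a median of 28.1% to 39.4% of si-NT over the members at 72 h and 20.2% to 22.3% at 144 h.

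**Figure D2:**
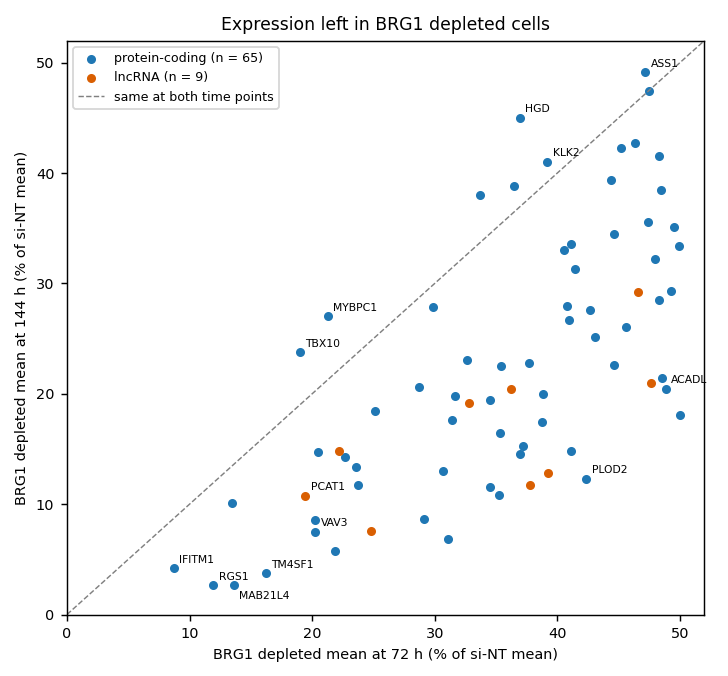
Percent of the si-NT mean left in BRG1 depleted cells at 72 h (x axis) and at 144 h (y axis) for the 65 protein-coding (blue) and 9 lncRNA (orange) genes, with a dashed line where both are equal. Most points lie under the line, and RGS1, MAB21L4, TM4SF1 and IFITM1 lie in the lower left corner, under 5% at 144 h.

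At the limit of 0.5, the larger of the ratios was 0.5 for MYB, 0.499 for HSD17B6 and 0.495 for BCL6, just inside, and 0.501 for DNASE2B, 0.503 for ENSG00000271659 and 0.505 for MX1, just outside. The limit separates genes with nearly equal values.

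The members lay on 19 chromosomes, with 10 on chromosome 1 and 9 on chromosome 4, and 4 groups of members lay within 500 kb of each other (GRCh37). The UGT2B group on chromosome 4 held TMPRSS11E (chr4:69313181-69363322), UGT2B17 (chr4:69402891-69442131), UGT2B15 (chr4:69512315-69536370), UGT2B7 (chr4:69917081-69978705) and UGT2B11 (chr4:70065669-70080466). TMPRSS11E ended 39568 bases from UGT2B17, which lay 70183 bases from UGT2B15, and UGT2B7 lay 86963 bases from UGT2B11. RGS1 (chr1:192544893-192549154) and RGS2 (chr1:192778169-192781405) were 229014 bases apart on the same strand, with no expressed gene between them. IFITM2 (chr11:303655-309397) ended 643 bases before IFITM1 (chr11:310041-315272). AGXT (chr2:241808241-241819919, plus strand) and MAB21L4 (chr2:241825465-241836306, minus strand) converge, with 5545 bases between their ends.

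Promoters of these neighbours, other than UGT2B17 and IFITM2, are shown because members that lie together can be set side by side at their starts, and that of KLK2 because it is the member with the highest level in control cells. The windows are from RefSeq on GRCh38.p14, a later build than the GRCh37 of the positions above. They run 5′ to 3′ from 250 bases before to 50 bases after the most upstream start with a RefSeq window. That start can lie inside the gene positions given above. Capitals mark matches, on either strand unless said otherwise, to TATAAA (the TATA box, read on the gene's strand only), TGTTTAC (forkhead), TGACTCA (AP-1) and TGATGNAAT (an ATF4 composite site).
TMPRSS11E (chr4:68447213-68447512, plus strand): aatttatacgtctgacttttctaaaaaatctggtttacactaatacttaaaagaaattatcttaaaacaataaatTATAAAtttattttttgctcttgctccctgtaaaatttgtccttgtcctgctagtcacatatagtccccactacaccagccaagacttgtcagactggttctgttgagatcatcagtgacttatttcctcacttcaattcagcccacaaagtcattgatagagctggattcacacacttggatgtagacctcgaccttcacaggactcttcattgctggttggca
UGT2B7 (chr4:69096224-69096523, plus strand): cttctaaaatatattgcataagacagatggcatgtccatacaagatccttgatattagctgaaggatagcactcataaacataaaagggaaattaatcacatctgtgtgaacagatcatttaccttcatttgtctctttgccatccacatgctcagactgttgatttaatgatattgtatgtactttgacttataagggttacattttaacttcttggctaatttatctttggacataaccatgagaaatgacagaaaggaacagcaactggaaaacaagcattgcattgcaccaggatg
UGT2B11 (chr4:69214699-69214998, minus strand): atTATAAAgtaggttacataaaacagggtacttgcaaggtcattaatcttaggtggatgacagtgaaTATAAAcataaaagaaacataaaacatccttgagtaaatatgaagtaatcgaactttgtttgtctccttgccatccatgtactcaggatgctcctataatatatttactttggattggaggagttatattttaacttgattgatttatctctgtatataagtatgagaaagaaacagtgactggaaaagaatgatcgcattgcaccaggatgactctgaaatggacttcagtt
UGT2B15 (chr4:68670603-68670902, minus strand): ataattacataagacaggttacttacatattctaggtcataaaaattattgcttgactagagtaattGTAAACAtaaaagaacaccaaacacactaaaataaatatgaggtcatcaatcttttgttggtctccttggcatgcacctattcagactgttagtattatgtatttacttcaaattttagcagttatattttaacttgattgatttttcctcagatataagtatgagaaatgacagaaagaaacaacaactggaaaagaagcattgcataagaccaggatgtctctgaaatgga

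In global alignments of the UGT2B windows, 64.0% of bases were identical between UGT2B7 and UGT2B11, 65.4% between UGT2B7 and UGT2B15 and 70.6% between UGT2B11 and UGT2B15. All 3 were poor in G and C, at 35%, 33% and 30.3%, and 2 of them held no CpG, so that the CpG ratio, the number of CpG over that expected from the C and G content, was 0 for UGT2B7, 0.25 for UGT2B11 and 0 for UGT2B15. The forkhead match of UGT2B15 began 183 bases before the start, and the TATA box letters of UGT2B11 began 248 and 183 bases before it. The TMPRSS11E window was 37% G and C, with a CpG ratio of 0.21 and TATA box letters 175 bases before the start.
RGS1 (chr1:192575523-192575822, plus strand): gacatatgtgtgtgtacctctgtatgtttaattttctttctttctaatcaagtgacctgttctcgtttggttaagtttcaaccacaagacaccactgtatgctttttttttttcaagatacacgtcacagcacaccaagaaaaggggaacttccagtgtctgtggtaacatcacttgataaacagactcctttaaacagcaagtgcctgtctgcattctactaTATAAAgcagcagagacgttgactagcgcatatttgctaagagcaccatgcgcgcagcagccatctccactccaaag
RGS2 (chr1:192808789-192809088, plus strand): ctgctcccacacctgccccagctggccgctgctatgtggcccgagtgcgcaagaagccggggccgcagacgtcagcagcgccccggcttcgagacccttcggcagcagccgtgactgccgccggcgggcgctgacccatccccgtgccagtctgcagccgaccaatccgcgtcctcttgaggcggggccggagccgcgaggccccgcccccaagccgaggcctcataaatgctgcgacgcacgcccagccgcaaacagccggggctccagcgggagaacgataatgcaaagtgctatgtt
IFITM1 (chr11:313790-314089, plus strand): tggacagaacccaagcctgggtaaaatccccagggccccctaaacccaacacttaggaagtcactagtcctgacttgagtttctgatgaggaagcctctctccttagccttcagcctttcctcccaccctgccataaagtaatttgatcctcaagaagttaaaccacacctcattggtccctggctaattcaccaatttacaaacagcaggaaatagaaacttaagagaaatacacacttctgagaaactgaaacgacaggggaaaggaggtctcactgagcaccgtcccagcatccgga
AGXT (chr2:240868574-240868873, plus strand): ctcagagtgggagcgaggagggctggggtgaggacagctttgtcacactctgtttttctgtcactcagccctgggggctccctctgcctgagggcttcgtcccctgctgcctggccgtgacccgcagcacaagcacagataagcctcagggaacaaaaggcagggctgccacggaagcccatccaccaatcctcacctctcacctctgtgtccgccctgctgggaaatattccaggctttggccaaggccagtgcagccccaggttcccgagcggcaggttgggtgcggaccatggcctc
MAB21L4 (chr2:240896107-240896406, minus strand): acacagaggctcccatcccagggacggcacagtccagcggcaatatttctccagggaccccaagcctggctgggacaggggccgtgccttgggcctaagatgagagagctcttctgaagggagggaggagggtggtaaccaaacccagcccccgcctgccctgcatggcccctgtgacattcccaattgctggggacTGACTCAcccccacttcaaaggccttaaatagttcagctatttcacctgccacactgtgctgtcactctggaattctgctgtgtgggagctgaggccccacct
KLK2 (chr19:50873189-50873488, plus strand): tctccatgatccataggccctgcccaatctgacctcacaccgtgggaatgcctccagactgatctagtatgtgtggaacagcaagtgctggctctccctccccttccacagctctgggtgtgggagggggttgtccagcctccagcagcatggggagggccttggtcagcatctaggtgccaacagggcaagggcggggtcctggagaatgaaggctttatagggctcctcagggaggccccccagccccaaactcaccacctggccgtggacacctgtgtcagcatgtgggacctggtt

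RGS1 and RGS2 encode related proteins but their windows shared 42.7% of bases. The RGS1 window was 41.7% G and C with a TATA box beginning 27 bases before the start. The RGS2 window was 69.7% G and C with a CpG ratio of 0.89 and held no match. The MAB21L4 window held an AP-1 match 53 bases before the start, and those of IFITM1, AGXT and KLK2 held no match. These letters are a description of the windows, and binding was not measured in these files.

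Over the set, 57 of the 74 members had such a window, and 42 of these (73.7%) had a CpG ratio under 0.6. The same held for 13.5% of 9132 other genes that reached the control level and for 51.2% of 27303 genes with a window. The median CpG ratio was 0.26 in members and 0.86 in the other expressed genes, and the median G and C content was 51% and 65.7%. The difference was also seen at matched control levels: 72.7% of members against 19.4% of the others under 10 TPM, 76.5% against 11.7% at 10 to 50 TPM, and 71.4% against 10.2% at 50 TPM or more.

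The TATA box letters were found in 17.5% of the members' windows, 2.99% of those of other expressed genes and 7.73% of all. They were counted at any distance from the start, so a match need not be a working TATA box. The members' windows were also poorer in G and C, with medians of 51% against 65.7%, and the part of this in the shares was not tested. The forkhead letters were found in 7.02%, 2.33% and 3.44%, the AP-1 letters in 7.02%, 2.46% and 4.9%, and the ATF4 letters in 1.75%, 0.383% and 1.01%. The HNF1 site was found in 0 of the 57 members' windows and in 0.00366% of all windows. For the forkhead, AP-1 and ATF4 letters the members' counts were 4, 4 and 1 windows.

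**Figure D3:**
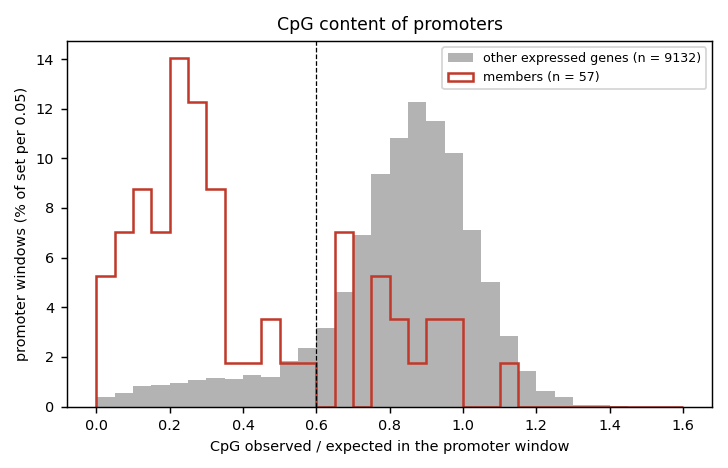
Ratio of observed to expected CpG in the promoter window (x axis, bins of 0.05) for the 57 members with a window (red line) and 9132 other expressed genes (grey), each as percent of its set (y axis); the dashed line marks 0.6. Most members lie left of the line (73.7%), and most other expressed genes right of it (13.5% are left of it).

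The 12 members with the lowest mean log2 ratio were RGS1, IFITM1, MAB21L4, TM4SF1, LRRC31, EFHC2, VAV3, AGXT, COLCA1, PCAT1, ALB and SLPI. They are a mixed group: a regulator and an activator of GTPases, an interferon-induced membrane protein, a liver-type enzyme, albumin, a protease inhibitor and lncRNAs.

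**Figure D4:**
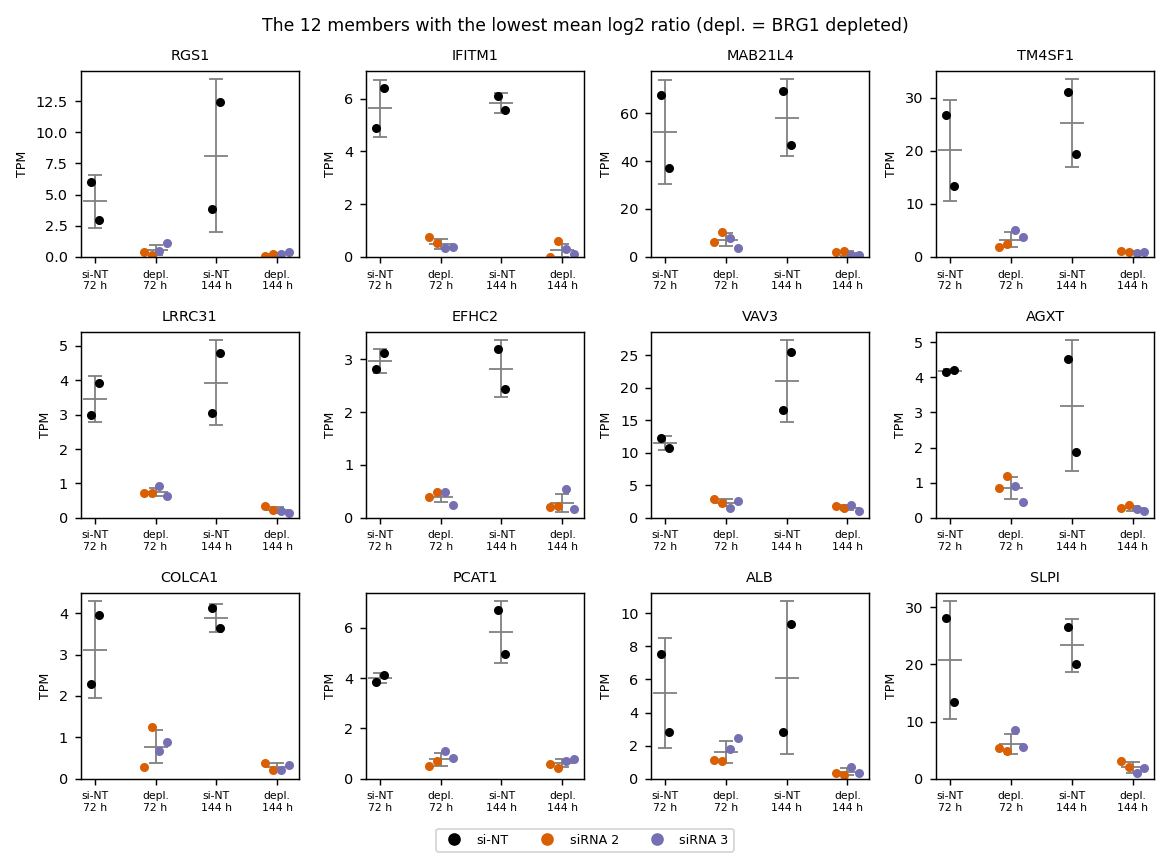
TPM of these 12 genes in each library (points) with the mean and SD of each group (grey bars; n = 2 for si-NT and n = 4 for BRG1 depleted, drawn as depl.), at 72 h and 144 h, each panel with its own linear axis. Every BRG1 depleted point lies below both si-NT points of its time point, and the si-NT points of RGS1, AGXT and ALB lie far apart at 144 h.

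Regulators of GTPases and other signalling genes made up 9 members (RGS1, RGS2, VAV3, GASK1B, PEBP4, PLEKHS1, RIN2, NOSTRIN and PLEKHA6), with a median of 37.2% of si-NT at 72 h and 15.3% at 144 h. RGS1 and RGS2 speed up GTP hydrolysis on G protein alpha subunits. Values are given in the order of the replicates, and for BRG1 depleted cells with the siRNA 2 libraries before the siRNA 3 libraries. RGS1 stood at 5.98 and 2.98 TPM in the si-NT libraries at 72 h and 3.81 and 12.45 TPM at 144 h, and in BRG1 depleted libraries at 0.38, 0.14, 0.5 and 1.12 TPM at 72 h and 0.06, 0.21, 0.22 and 0.38 TPM at 144 h. RGS2 stood at 34.2 and 32.2 TPM in si-NT at 72 h and 28.8 and 67.25 TPM at 144 h, against 11.8, 8.92, 15.2 and 18.7 TPM and 4.97, 4.1, 6.65 and 12.7 TPM in BRG1 depleted libraries. In both genes si-NT replicate 2 was the high library at 144 h, by a wide margin. VAV3 (chr1:108113783-108507802), an exchange factor that activates small GTPases, averaged 11.5 ± 1.08 TPM (SD, n = 2) at 72 h and 21.0 ± 6.26 TPM at 144 h in si-NT, and 2.33 ± 0.576 TPM (SD, n = 4) and 1.58 ± 0.36 TPM after depletion. GASK1B, a Golgi-associated kinase family member, kept 37.2% and 15.3% of si-NT.

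The enzymes that conjugate and convert steroids were UGT2B7, UGT2B11, UGT2B15, UGT2B17 and HSD17B6. UGT2B15 and UGT2B17 attach glucuronic acid to dihydrotestosterone and its metabolites and so inactivate androgens in the prostate. UGT2B17 stood at 100.3 and 92.8 TPM in si-NT at 72 h and 80.4 and 123 TPM at 144 h, and at 33.5, 28.2, 37.1 and 38 TPM and 30.5, 18.1, 22.6 and 20.3 TPM in BRG1 depleted libraries. UGT2B11 stood at 127 and 67.6 TPM in si-NT at 72 h and 91.9 and 194 TPM at 144 h, against 40.2, 18.6, 61.5 and 53.3 TPM and 36.1, 12.6, 33 and 47.2 TPM. At 72 h its lower si-NT library (67.6 TPM) was close to its highest BRG1 depleted library (61.5 TPM). UGT2B15 kept 49.3% of si-NT at 72 h and 29.3% at 144 h, and UGT2B7, at about 2 TPM in control cells, kept 23.6% and 13.4%. For UGT2B7, UGT2B11 and UGT2B15 si-NT replicate 2 was about 2-fold above replicate 1 at 144 h. The UGT2B genes are close copies of each other, so reads may be shared between them and single values are uncertain. HSD17B6, an oxidoreductase of androgen metabolites, was at the limit at 72 h, with 49.9%, and kept 33.4% at 144 h.

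Amino acid metabolism and transport held 7 members, DDC, ASS1, AGXT, HGD, SLC7A2, SLC7A11 and SLC43A1, with a median of 43.1% of si-NT at 72 h and 32.2% at 144 h. DDC, the decarboxylase that makes dopamine and serotonin from their amino acid precursors, stood at 78.9 and 99.3 TPM in si-NT at 72 h and 130.5 and 165 TPM at 144 h, and at 20.6, 22.4, 22.6 and 19.1 TPM and 18.7, 23.9, 15.2 and 11.8 TPM in BRG1 depleted libraries. Its groups were far apart, with 23.8% and 11.7% of si-NT left. AGXT, the peroxisomal aminotransferase that detoxifies glyoxylate, averaged 4.19 ± 0.0424 TPM (SD, n = 2) at 72 h and 3.19 ± 1.87 TPM at 144 h in si-NT, and 0.848 ± 0.301 TPM (SD, n = 4) and 0.273 ± 0.0714 TPM after depletion. SLC7A11, the cystine-glutamate exchanger, stood at 13.8 and 25.3 TPM in si-NT at 72 h but at 9.72 and 7.91 TPM at 144 h, and at 5.92, 12.4, 12.4 and 6.75 TPM and 3.04, 2.66, 3.57 and 2.08 TPM in BRG1 depleted libraries. ASS1, the urea cycle enzyme that makes argininosuccinate, likewise stood at 88.1 and 97.6 TPM in si-NT at 72 h and 51.8 and 42.8 TPM at 144 h, against 34.2, 57.6, 51.3 and 32.05 TPM and 23.3, 26.1, 21.1 and 22.5 TPM. For both genes the si-NT level itself was lower at 144 h, and BRG1 depleted libraries of 72 h reached the si-NT values of 144 h. SLC7A2, a transporter of arginine and lysine, kept 43.1% and 25.2% of si-NT.

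Lipid metabolism held 6 members, among them ACADL, ACOT11, MFSD2A, CEL and PLA1A. ACADL, the long-chain acyl-CoA dehydrogenase of fatty acid oxidation, stood at 24 and 12.5 TPM in si-NT at 72 h and 11.2 and 12.9 TPM at 144 h, and at 6.17, 6.21, 11.5 and 11.9 TPM and 2, 2.07, 3.42 and 2.38 TPM in BRG1 depleted libraries. At 72 h the siRNA 3 libraries of ACADL lay closer to the lower si-NT library than to the siRNA 2 libraries. ACOT11, a thioesterase of acyl-CoA, kept 33.7% at 72 h and 38% at 144 h.

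The 8 secreted proteins and proteases were KLK2, TFPI, SLPI, ALB, GCG, EGF, STC1 and SFTPA2, which kept a median of 30.9% and 17.1% of si-NT. KLK2, an androgen-driven prostate protease of the kallikrein family, was the most abundant member, at 339 and 333 TPM in si-NT at 72 h and 341 and 143 TPM at 144 h, and at 58.2, 161.5, 223 and 84.4 TPM and 83.2, 124, 115 and 75.1 TPM in BRG1 depleted libraries. Its si-NT replicate 2 at 144 h lay closer to the BRG1 depleted libraries than to the other 3 si-NT libraries. The log2 ratio of KLK2 means at 144 h was -1.28, and it was -1.78 without that library and -0.53 without the other si-NT library. TFPI, the inhibitor of tissue factor in blood clotting, stood at 49.95 and 61 TPM in si-NT at 72 h and 56.1 and 58.6 TPM at 144 h, and at 18.2, 22.6, 19.4 and 26.1 TPM and 11.6, 11.6, 13.6 and 9.02 TPM in BRG1 depleted libraries. The libraries of each time point were well separated for TFPI. SLPI, a secreted inhibitor of leukocyte elastase, stood at 28.03 and 13.5 TPM in si-NT at 72 h, and kept 29.2% at 72 h and 8.65% at 144 h. ALB, the plasma protein albumin, stood at 7.52 and 2.84 TPM in si-NT at 72 h and 2.84 and 9.37 TPM at 144 h, so its si-NT replicates differed over 2-fold at both time points. Its log2 ratio at 144 h was -3.86 with both, -2.76 without si-NT replicate 2 and -4.48 without replicate 1. STC1, the hormone stanniocalcin, kept 29.9% and 27.9%.

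Among the 9 cell surface and membrane genes (TM4SF1, PTPRR, TMPRSS11E, TMEFF2, PROCR, BEST1, CDH26, TMEM45A and PDZK1IP1), TM4SF1, a 4-pass membrane protein of the L6 family, kept the smallest percent at both time points. It stood at 26.8 and 13.4 TPM in si-NT at 72 h and 31.1 and 19.4 TPM at 144 h, and at 1.88, 2.39, 5.13 and 3.66 TPM and 1.15, 0.9, 0.79 and 0.96 TPM in BRG1 depleted libraries. PTPRR, a receptor-type tyrosine phosphatase that acts on MAP kinases, averaged 5.76 ± 1.36 TPM (SD, n = 2) at 72 h and 7.0 ± 1.34 TPM at 144 h in si-NT, and 2.03 ± 0.417 TPM (SD, n = 4) and 0.76 ± 0.0812 TPM after depletion. TMEFF2, a membrane protein with follistatin and EGF-like domains found in prostate and brain, kept 31.4% and 17.6%, and TMPRSS11E, a membrane-bound serine protease, 34.5% and 11.5%.

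The 8 genes of interferon response, innate immunity and cell death were IFITM1, IFITM2, TNFSF10, TNFAIP2, CLEC7A, CASP4, GIMAP2 and PMAIP1. IFITM1 and IFITM2 are interferon-induced membrane proteins that block virus entry. IFITM1 stood at 4.88 and 6.41 TPM in si-NT at 72 h and 6.11 and 5.58 TPM at 144 h, and at 0.74, 0.52, 0.32 and 0.39 TPM in BRG1 depleted libraries at 72 h. At 144 h its BRG1 depleted libraries were listed at 0, 0.59, 0.29 and 0.1 TPM. Its neighbour IFITM2, at 43.7 ± 0.891 TPM in si-NT at 72 h and 43.3 ± 9.24 TPM at 144 h (SD, n = 2), kept far more, 46.4% and 42.8%. The genes are close relatives, and reads may be split between them. CLEC7A, a receptor for fungal glucans, averaged 29.2 TPM in si-NT and 12 TPM in BRG1 depleted cells at 72 h, and 32.1 and 10.8 TPM at 144 h.

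The 5 cytoskeleton, adhesion and matrix genes were PLOD2, MYBPC1, TNS1, KRT6C and FRY. PLOD2, which hydroxylates lysines of collagen, stood at 9.72 and 11.2 TPM in si-NT at 72 h against 0.78, 9.32, 5.55 and 2.05 TPM in BRG1 depleted libraries, and at 5.9 and 1.9 TPM against 0.51, 0.5, 0.54 and 0.37 TPM at 144 h. At 72 h siRNA 2 replicate 2 was thus nearly at the control level. MYBPC1, a myosin-binding protein, averaged 15.4 TPM in si-NT and 3.29 TPM in BRG1 depleted cells at 72 h, and 10.8 and 2.93 TPM at 144 h. KRT6C, like SFTPA2 and CEL of other groups, has close copies in the genome with which reads may be shared.

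The 4 genes for transcription factors and RNA binding were TBX10, MYB, BCL6 and MBNL2. MYB, a factor of progenitor cell proliferation, stood at 2.78 and 1.62 TPM in si-NT at 72 h and 2.94 and 4.19 TPM at 144 h, and at 1.07, 0.62, 1.56 and 1.15 TPM and 0.69, 0.8, 0.67 and 0.42 TPM in BRG1 depleted libraries. At 72 h the gap between the groups was 1.56 to 1.62 TPM. BCL6, a transcriptional repressor, kept 49.5% and 35.1%, and TBX10, a T-box factor, 19% and 23.8%. Of the other protein-coding members, MAB21L4 stood at 67.7 and 36.9 TPM in si-NT at 72 h and 69.4 and 46.8 TPM at 144 h, and at 6.33, 10.35, 8.05 and 3.77 TPM and 2.2, 2.65, 0.75 and 0.66 TPM in BRG1 depleted libraries. LRRC31, a leucine-rich repeat protein, kept 21.9% and 5.79%, EFHC2, with EF-hand motifs, 13.5% and 10.1%, and RBP5, a retinol-binding protein, 38.7% and 17.5%.

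All 9 lncRNAs kept a smaller percent at 144 h, with a median of 36.3% at 72 h and 14.8% at 144 h. PCAT1, a prostate cancer associated transcript, stood at 3.85 and 4.14 TPM in si-NT at 72 h and 6.71 and 4.96 TPM at 144 h, and at 0.49, 0.69, 1.12 and 0.81 TPM and 0.6, 0.43, 0.69 and 0.79 TPM in BRG1 depleted libraries. COLCA1, on chromosome 11, averaged 3.12 TPM in si-NT and 0.775 TPM in BRG1 depleted cells at 72 h, and 3.88 and 0.292 TPM at 144 h. LINC01133 stood at 10.5 and 8.7 TPM in si-NT at 72 h and 5.5 and 4.17 TPM at 144 h, and at 1.34, 2.04, 3.34 and 1.81 TPM and 0.69, 0.85, 0.62 and 0.7 TPM in BRG1 depleted libraries, so both conditions were lower at 144 h. LINC01843 and ENSG00000258162 kept 37.8% and 39.3% at 72 h and 11.7% and 12.8% at 144 h. LINC00161 and LNCATV kept 32.8% and 36.3% at 72 h and 19.1% and 20.5% at 144 h, and the other lncRNAs were ENSG00000236935 and PRKAG2-AS1. The si-NT libraries of LNCATV at 72 h were far apart, at 15.1 and 6.02 TPM.

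The percents rest on 2 si-NT libraries at each time point, and single libraries moved some of them. Of 888 log2 ratios refitted with 1 library of the time point left out, 24 moved by over 1.5 times, in 15 members. Without si-NT replicate 1 at 72 h, LNCATV kept 63.6% and ALB 56.8% of si-NT, both past the limit of 50%, and SLPI kept 44.9%, TM4SF1 24.4% and RGS1 17.95%. Without siRNA 2 replicate 2 at 72 h, PLOD2 kept 26.8% and TMEM45A 27.3%, and RGS1 kept 7.59% without siRNA 3 replicate 2. At 144 h, KLK2 kept 69.4% without si-NT replicate 1, past the limit. Without that library TMEM45A kept 43.7%, ENSG00000236935 34.9%, PLOD2 25.3%, AGXT 14.6%, ALB 4.48% and RGS1 1.75%. Without si-NT replicate 2 at 144 h, UGT2B15 kept 44.5%, UGT2B11 35.1%, RGS2 24.7%, UGT2B7 20.7%, ALB 14.8%, PLOD2 8.14% and RGS1 5.71%. IFITM1 kept 2.22% without siRNA 2 replicate 2 at 144 h, and UGT2B7 8.8% without siRNA 3 replicate 2.

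For scale, log2(TPM + 1) was compared with limma over the 16337 genes that reached 1 TPM in 2 or more libraries, with Benjamini-Hochberg adjustment over them and a call at an adjusted p under 0.05. Against si-NT, 47 of the 74 members were called lower at 72 h, where 0.557% of genes were, and 71 at 144 h, where 10.8% were. The same contrast chose these genes, so nothing is read from the counts. The members were then compared in 4 contrasts that the choice did not set directly, although it used the same libraries.

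Between time points in BRG1 depleted cells, 11 of the 74 members (14.9%) fell further from 72 h to 144 h and 0 rose, whereas 1.68% of all genes were called lower and 2.58% higher (limma). The choice capped the BRG1 depleted values at both time points, so the shares in this comparison describe the members and are no independent support. Of the 74 members, 69 had a lower mean log2 level at 144 h. The median change was -0.39 on the log2 scale against -0.04 over all genes tested. At an unadjusted p under 0.05, 34 members (45.9%) were lower and 0 higher, against 12.2% and 9.71% of all genes. The 11 were genes of several roles: the coagulation and protease inhibitors TFPI and SLPI, the amino acid genes SLC7A11, SLC7A2 and ASS1, the fatty acid enzyme ACADL, the membrane genes TM4SF1 and PTPRR, PEBP4, MAB21L4 and the lncRNA LINC01133. TFPI had the smallest adjusted p, 0.0077, with a change of -0.86 (SE 0.13). The largest change was that of MAB21L4, -1.68 (SE 0.33, adjusted p = 0.0195, limma), followed by ACADL with -1.48 (SE 0.25, adjusted p = 0.00995, limma) and SLC7A11 with -1.38 (SE 0.25, adjusted p = 0.0144, limma). SLC7A2 had the smallest of the 11, -0.47 (SE 0.10, adjusted p = 0.026, limma).

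In each of the 11 the 4 BRG1 depleted libraries of 144 h lay below the 4 of 72 h, as they did in 24 of the 74 members and in 8.16% of the 11389 genes that reached the control level. The count depended on the scale: with libraries scaled to the ERCC spike-ins, which moved the median of all genes to -0.18, 1 member was called, ACADL, and without the filter on low values 4 were. Fewer genes in all were called on these scales, 4 lower and 11 higher of 16497 with the spike-ins and 139 lower and 244 higher of 33048 without the filter, against 275 and 422 of 16337. With the spike-ins the median change of the members was -0.48, and 73 of the 74 were negative. It also depended on the siRNA 3 libraries, with 4 members called without replicate 2 of 144 h, and 5 and 7 without replicates 1 and 2 of 72 h. ACADL was called under each of the 18 alternatives, with adjusted p-values of 0.00709 to 0.0366.

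**Figure D5:**
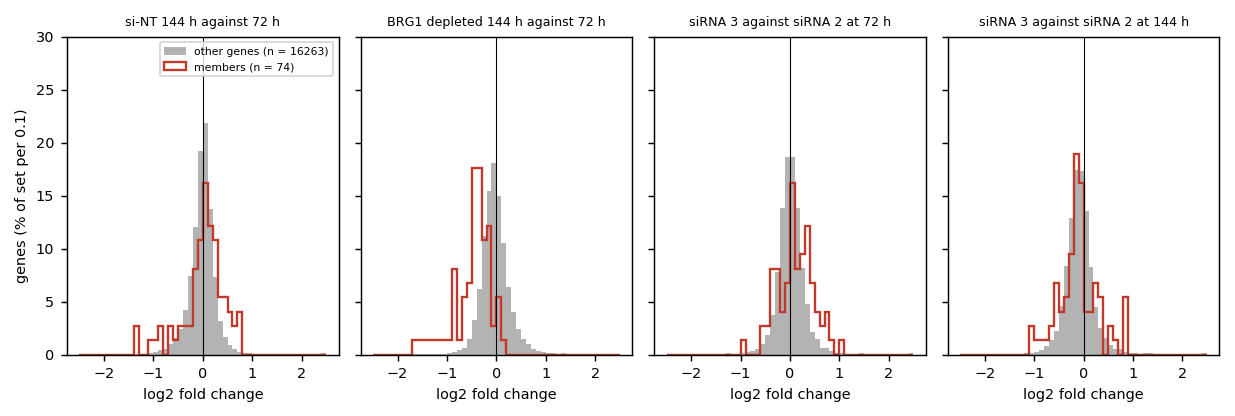
Distribution of log2 fold changes (x axis, bins of 0.1) for the 74 members (red line) and the 16263 other genes tested (grey), each as percent of its set (y axis), in the 4 contrasts that did not choose the genes. The members' distribution lies to the left of the other genes' in BRG1 depleted cells at 144 h against 72 h (median -0.39 against -0.04 over all genes) and around 0 in the other panels.

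In si-NT cells 0 of the 74 members and 0.0% of all genes were called between time points (limma), with 9 members (12.2%) at an unadjusted p under 0.05, against 4.11% of all genes. The median change over the members was 0.07, from -1.35 for PLOD2 to 0.79 for VAV3, with 45 members higher and 29 lower at 144 h. The 9, named after their values were seen, were ASS1 (-0.96), LINC01133 (-0.87), SLC7A11 (-1.01), TMEM45A (-1.31) and BEST1 (-0.80), which were lower, and VAV3 (0.79), DDC (0.72), LINC00161 (0.78) and ENSG00000258162 (0.68), which were higher. ASS1, LINC01133 and SLC7A11 were thus among the 11 called in BRG1 depleted cells and had similar changes in si-NT. ASS1 changed by -0.85 (SE 0.17) in BRG1 depleted and by -0.96 (SE 0.24) in si-NT cells, LINC01133 by -0.83 (SE 0.18) and -0.87 (SE 0.25), and SLC7A11 by -1.38 (SE 0.25) and -1.01 (SE 0.35). TFPI, in contrast, changed by 0.05 in si-NT cells, MAB21L4 by 0.19, TM4SF1 by 0.36 and ACADL by -0.50. The difference between the changes, an interaction in the same fit, was called for 0 of the 74 members and 0.0184% of all genes (limma), and at an unadjusted p under 0.05 it was lower in BRG1 depleted cells for 19 members and higher for 0, where 6.35% and 5.54% of all genes were. This interaction is the difference between the ratios that chose the genes, so nothing is read from these counts.

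The siRNAs differed by more than 1 on the log2 scale in 1 member at 72 h (UGT2B11, 1.03) and 2 at 144 h (IFITM2, -1.02, and MAB21L4, -1.004). Between siRNA 3 and siRNA 2, 0 of the 74 members were called at 72 h, where 0.141% of all genes were, and 0 at 144 h, where 0.331% were (limma, 6 groups). The choice had left out genes with a library of either siRNA not below both si-NT libraries. Low counts here are thus partly set by it. At an unadjusted p under 0.05 there were 7 members at 72 h, 3 lower and 4 higher with siRNA 3, against 8.33% of all genes, and 14 at 144 h, 10 lower and 4 higher, against 13.3%. The median SE of these differences was 0.24 on the log2 scale, which sets the size of difference that 2 libraries for each siRNA can show. The smallest p at both time points was that of TNFAIP2, a gene induced by tumour necrosis factor and named after its values were seen. TNFAIP2 stood at 6.51 and 7.79 TPM with siRNA 2 and 3.77 and 2.61 TPM with siRNA 3 at 72 h, and at 4.14 and 5.26 TPM and 2.03 and 2.31 TPM at 144 h. The siRNAs did not overlap for it, and its differences were -0.97 (adjusted p = 0.111, limma) and -0.84 (adjusted p = 0.112, limma). IFITM2 and CLEC7A had differences of -1.02 and -0.91 at 144 h (adjusted p = 0.118 and 0.163, limma), and RGS2 of 0.89 (adjusted p = 0.348, limma).

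Related genes were read from 6 lists, which were chosen with results of these data known, and which are described by counts of genes called against si-NT (limma). Over all genes tested, 0.557% were called lower and 1.13% higher at 72 h, and 10.8% and 13.6% at 144 h. These shares depend on the scale. With ERCC scaling, of 16497 genes, 24 were lower and 7 higher at 72 h, and 609 and 140 at 144 h. The list counts moved by over 1.5 times when single libraries were left out, and these values are given with each list. Some also moved with other settings. Of the 18 alternatives, 5 moved the ATF4 count called lower at 144 h, and 3 of these left out a library. The same 5 and 3 held for fatty acid genes called higher at 144 h. For SLC7 genes called lower at 144 h they were 4 and 2. Members are counted in the lists although the same contrast chose them, so nothing is read from their calls. Genes named from them that are not members were chosen after their values were seen, and none of these changed direction at 144 h with size factors or ERCC scaling. A kept direction does not mean that the gene was still called. Of the 7 UGT2B genes, 3 were called lower at 72 h and 6 at 144 h and 0 higher, with median changes of -1.07 and -1.72 against 0.06 and 0.03 over all genes tested. At 72 h 0 were called without either si-NT library of 72 h, and 1 without siRNA 2 replicate 2 or either siRNA 3 library, and at 144 h 3 were called without si-NT replicate 2. Among these 7 genes, 4 were members. UGT2B7 and UGT2B17 were called at both time points, and UGT2B11 and UGT2B15 at 144 h only. UGT2B4 was called lower at both time points but averaged 1.58 TPM in si-NT at 144 h, under the level required, and UGT2B28, called at 144 h with -2.505 (SE 0.58), had libraries that overlapped. UGT2B10 averaged 17.1 and 11.1 TPM in si-NT and BRG1 depleted cells at 72 h and 23.5 and 8.74 TPM at 144 h and was called at neither.

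Androgen response genes, in contrast, went both ways. Of 39 tested, 2 were called lower and 0 higher at 72 h, and 6 lower (15.4%) and 12 higher (30.8%) at 144 h, with medians of 0.04 and 0.19. At 144 h 2 were lower without si-NT replicate 1, 3 without siRNA 2 replicate 1, and 3 lower and 4 higher without si-NT replicate 2. At 72 h 0 were lower without si-NT replicate 2 and 1 without siRNA 3 replicate 2, and 1 was higher without si-NT replicate 1 or siRNA 2 replicate 1. The members among them were KLK2, LRRC31 and TMEFF2. LRRC31 and TMEFF2 were the 2 called lower at 72 h and were also called at 144 h. KLK2 was called at neither time point (adjusted p = 0.152 at 72 h and 0.0937 at 144 h, limma). At 144 h the kallikrein KLK4 (1.99, SE 0.31), the prostatic acid phosphatase ACP3 (1.92) and PMEPA1 (1.75) rose, and INPP4B (-0.65), UAP1 (-0.62) and RAB27A (-0.50) fell. With ERCC scaling, which put the all-gene median at -0.12 for 72 h and -0.31 for 144 h, the androgen response counts were 1 lower and 0 higher at 72 h and 2 lower and 2 higher at 144 h.

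Of 38 ATF4 targets of amino acid stress, 4 were called lower at 72 h (10.5%) and 14 at 144 h (36.8%) and 0 higher, with medians of -0.50 and -0.43. At 72 h the count was 0 to 5 with 1 library left out, lowest without si-NT replicate 2, and 9 of the 12 omissions lowered it by over 1.5 times. At 144 h it was 6 and 4 without si-NT replicates 1 and 2 and 9 without siRNA 3 replicate 2. SLC7A11 was the member among them, and the serine and one-carbon enzymes PHGDH (-0.90), PSAT1 (-0.61), SHMT2 (-1.05) and MTHFD2 (-1.05) fell at 144 h. Of 9 SLC7 transporters and their heavy chains tested, 2 were lower at 72 h, and 6 lower (66.7%) and 1 higher at 144 h, with medians of -0.35 and -0.58. At 72 h 11 of the 12 omissions of 1 library left 0 or 1, and at 144 h the omission of either si-NT library left 1 lower and 0 higher. SLC7A2 and SLC7A11 were the members, and SLC7A9 was the 1 that rose, by 0.96.

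Of 39 hypoxia genes, 0 were called at 72 h (14 lower and 0 higher at an unadjusted p under 0.05), and 9 lower (23.1%) and 3 higher (7.69%) at 144 h, with medians of -0.43 and -0.46. The si-NT libraries of 144 h stood apart on this list: LDHA was at 1208 TPM in replicate 1 and 777 TPM in replicate 2, and NDRG1, a stress-induced gene, at 127 and 25.3 TPM. So did the siRNA 2 libraries of 72 h. In their replicates 1 and 2 LDHA was at 560 and 1263 TPM, and NDRG1 at 51.1 and 254 TPM. Without si-NT replicate 1 of 144 h 1 gene was lower, and without replicate 2 1 was higher. At 72 h 2 were lower without siRNA 2 replicate 2 and 1 without siRNA 3 replicate 1. PLOD2 and STC1 were members, and the glycolytic genes LDHA (-1.09), ENO1 (-0.54), TPI1 (-0.45) and GAPDH (-0.60) fell at 144 h while CA12 (1.00) rose. Of 41 genes of fatty acid oxidation and ketone synthesis, 3 were lower and 3 higher at 72 h, and 9 lower (22%) and 11 higher (26.8%) at 144 h, with medians of 0.00 and 0.10. At 144 h 4 were lower without si-NT replicate 2, and 3 were higher without either si-NT library and 7 without siRNA 2 replicate 2. At 72 h 9 of the 12 omissions left 0 or 1 lower and 7 left 0 or 1 higher. ACADL and ACOT11 were among the members on this list. The ketone body dehydrogenases BDH1 (-0.60) and BDH2 (-1.13) fell at 144 h, whereas the peroxisomal HSD17B4 (0.79), the carnitine carrier SLC25A20 (0.73) and ACSL6 (1.97) rose.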

How the data were processed

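RNA-seq was carried out on 12 libraries of LNCaP cells. Per the methods and the submitters' processing notes, the authors made stranded mRNA libraries with ERCC spike-in RNA, aligned reads to hg19 (GRCh37) with STAR 2.4.0j and counted them into GENCODE release 19 genes. For their own comparisons the authors normalised counts to the spike-ins. At its own thresholds, the paper reports more genes lower than higher after BRG1 depletion at both time points. The main fit here used the TPM without spike-in scaling. The authors deposited TPM with 2 decimals for 63568 genes and 92 spike-ins. The deposited TPM share 1 total over all libraries, spike-ins included, so they keep no depth and no count model was used.

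Biotypes, symbols and GRCh37 positions came from GENCODE release 44, in which 55665 genes (87.6%) were found. The members and the gene lists were chosen with earlier results of these data known. The log2(TPM + 1) of genes that reached 1 TPM in 2 or more libraries was fitted with limma 3.58.1 (lmFit, eBayes with trend, R 4.3.3) in 4 groups, or 6 for the siRNAs. Fold changes of weakly expressed genes are smaller on this scale than as plain ratios. Tables and plots were made with Python 3.11.15, pandas 2.3.3, NumPy 2.4.6 and matplotlib 3.10.9. The procedure was tested on simulated data.

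Members named with values were the 12 with the lowest mean log2 ratio, the 5 lowest lncRNAs, up to 10 with the smallest adjusted p in each contrast not set by the choice of genes, those at the ratio limit, those within 500 kb of another member, those on a gene list, and the 2 most abundant of each role group. Roles were assigned from textbook knowledge. The values of 1 member are not reported here. Same-numbered replicates showed no general shared deviation (correlations over 15 pairs of -0.23 to 0.30, median -0.02, 2 over 0.1), so the main fit has no replicate block. These correlations cannot exclude that some libraries were paired.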

Additional observations from a re-analysis of the deposited data

Results flagged for a closer look

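In 3 of 92 sets of 4 BRG1 depleted libraries tested over the 46 members named with values, 1 library lay far from the other 3 by Dixon's test at the 95% level, a rate that chance alone reaches in about 1 of 20 sets. EFHC2 stood at 0.54 TPM in siRNA 3 replicate 1 at 144 h and at 0.17 to 0.23 TPM in the others. SLC7A2 stood at 1.8 TPM in siRNA 2 replicate 1 at 72 h and at 2.08 to 2.1 TPM in the others. MYBPC1 stood at 3.94 TPM in siRNA 2 replicate 2 at 144 h and at 2.49 to 2.69 TPM in the others.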

How the results depend on the processing

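The number of genes that met the rule was 74. It was 114 with a si-NT mean of 1 TPM, 42 with 5 TPM and 42 with a ratio limit of 0.4, and 61 to 84 with 1 library left out. Scaled to size factors 88 genes met it, and to ERCC spike-ins 111, which included 73 of the members.

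Against si-NT at 72 h, 91 genes were called lower and 184 higher. These counts were 146 and 136 with size factors, 24 and 7 with ERCC scaling, 146 lower without the filter, and 14 to 85 lower and 24 to 195 higher with 1 library left out. At 144 h they were 1761 and 2222, 609 and 140 with ERCC scaling, and 394 to 1891 and 753 to 2419 with 1 library left out. With the replicate number as a block they were 58 and 121 at 72 h. Whether same-numbered libraries came from linked cultures is not known.

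Members called between time points in BRG1 depleted cells numbered 11, and 1 with ERCC scaling, 4 without the filter, 4 to 11 with 1 library left out and 11 with the replicate block. Between time points in si-NT cells, and between the siRNAs at either time point, 0 members were called under all 18 alternatives. With ERCC scaling the median difference of all genes between the siRNAs moved to 0.16 at 72 h and -0.49 at 144 h. Of 1036 refitted ratios of members at each time point, 1 at 72 h and 24 at 144 h moved by more than the spread between replicates. The 1036 include refits without a library of the other time point, which cannot change the ratio. These counts thus overstate how steady the ratios were. Over all refits the largest shifts were 0.87 and 1.10 on the log2 scale, both for ALB. They are not among those counted, since 0 refits of ALB moved by more than its own spread between replicates. That 0 changed sign with a library left out is fixed by the choice of genes. Depth is unknown, so the precision of genes near 0 TPM could not be given.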
